A study of Mus musculus with 15 samples.

Results

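This account describes 81 array probes for exons of long intergenic non-coding RNAs (lincRNAs) whose signal in neonatal mouse liver lay below that in E14.5 and adult liver. A lincRNA exon probe is one whose name starts MM9LINCRNAEXON, followed by an exon number and a plus or minus sign. There were 3457 such probes for 1729 exon numbers, and 1874 of them were tested, because at some stage the scanner software marked all 3 arrays as well above background for that probe. Members were chosen by measured values. A probe was kept when the lower of its E14.5 and adult means exceeded its neonatal mean by at least 1 on the log2 scale, which is 2-fold, and when its adult and E14.5 means differed by less than 1. The first of these differences is called the neonatal dip below. The 81 members were 4.32% of the 1874 probes tested. They comprised 44 probes with a plus sign and 37 with a minus sign, and none had a missing value.

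The study compared livers of C57BL/6 mice at 5 stages. Fetal livers were taken on embryonic days E12.5 and E14.5 and late in gestation, at E17.5, and the others came from neonatal mice and from adults of 8 weeks. Each stage was represented by 3 arrays, 15 in all, and the labels name no treatment or genetic change in any group. Whole-liver RNA depleted of ribosomal RNA was labelled in 1 colour by random priming. No label ties the samples of a stage to different animals. The p-values below therefore reflect only how far these samples differed from one another, and that spread may be technical.

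LincRNAs are transcripts that lie between protein-coding genes, are often spliced and polyadenylated, and carry no long open reading frame. Many are present at low levels and in few tissues, and some act in the nucleus on chromatin or on transcription. The fetal liver is a blood-forming organ that holds many red cell precursors beside immature hepatocytes, and blood formation moves to the bone marrow around birth while hepatocytes take on metabolic functions such as bile acid, lipid and glucose handling. In RNA from whole liver, fewer cells of a type and less RNA per cell cannot be told apart.

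The files name these probes by exon number alone, with no host transcript, position or probe sequence, and they do not say what the order of the numbers or the signs stand for. The members are therefore given by number and sign, so that 10679- stands for MM9LINCRNAEXON10679-. A value is the log2 processed signal of the probe minus the 75th percentile of its array, called the scaled signal. A scaled signal of 0 equals that percentile, and each unit below 0 is a further 2-fold. Values are comparable between arrays for 1 probe and not between probes.

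The 75th percentile of the processed signal ranged from 150 to 309 over the arrays. The share of noncontrol spots well above background ranged from 50.9% to 62.9% on 14 arrays and was 80.9% on E17.5 replicate 1, where 55.8% of the negative-control spots were also marked well above background against 4% to 9.58% on the others. No member passed the detection requirement through E17.5 alone. The arrays were scanned in 2 sets, each taken as 1 slide. The first slide held the E12.5 and E14.5 arrays with E17.5 replicates 1 and 2, and the second held E17.5 replicate 3 with all neonatal and adult arrays. Neonatal and adult arrays thus shared a slide, and neonatal and E14.5 arrays did not, so in the latter pair slide and stage cannot be told apart. Of 43 marker genes listed for liver cell types and for proliferation, the files named 6, so the tissue label could not be checked against markers such as albumin.

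The neonatal dip had a median of 1.17 over the 81 members and ranged from 1.01 to 5.11. The dip was at least 1.5 in 14 members, at least 2 in 5 and at least 3 in 2. Of those 14 members, 10 were well above background on no neonatal array, among them all 5 with a dip of at least 2, so for these the dip ranks signals and does not measure a neonatal level. These values chose the members and are a description without a test. The adult mean lay within 0.5 of the E14.5 mean in 62 members, was above it in 31 and below it in 50, and the median adult minus E14.5 difference was -0.11. The median E14.5 minus neonatal difference was 1.36 in the members, 0.26 over the 1874 lincRNA exon probes tested and 0.05 over all 37363 features tested. The median adult minus neonatal difference, taken within 1 slide, was 1.26 in the members, 0.39 over the lincRNA exon probes and 0.17 over all features.

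**Figure D1:**
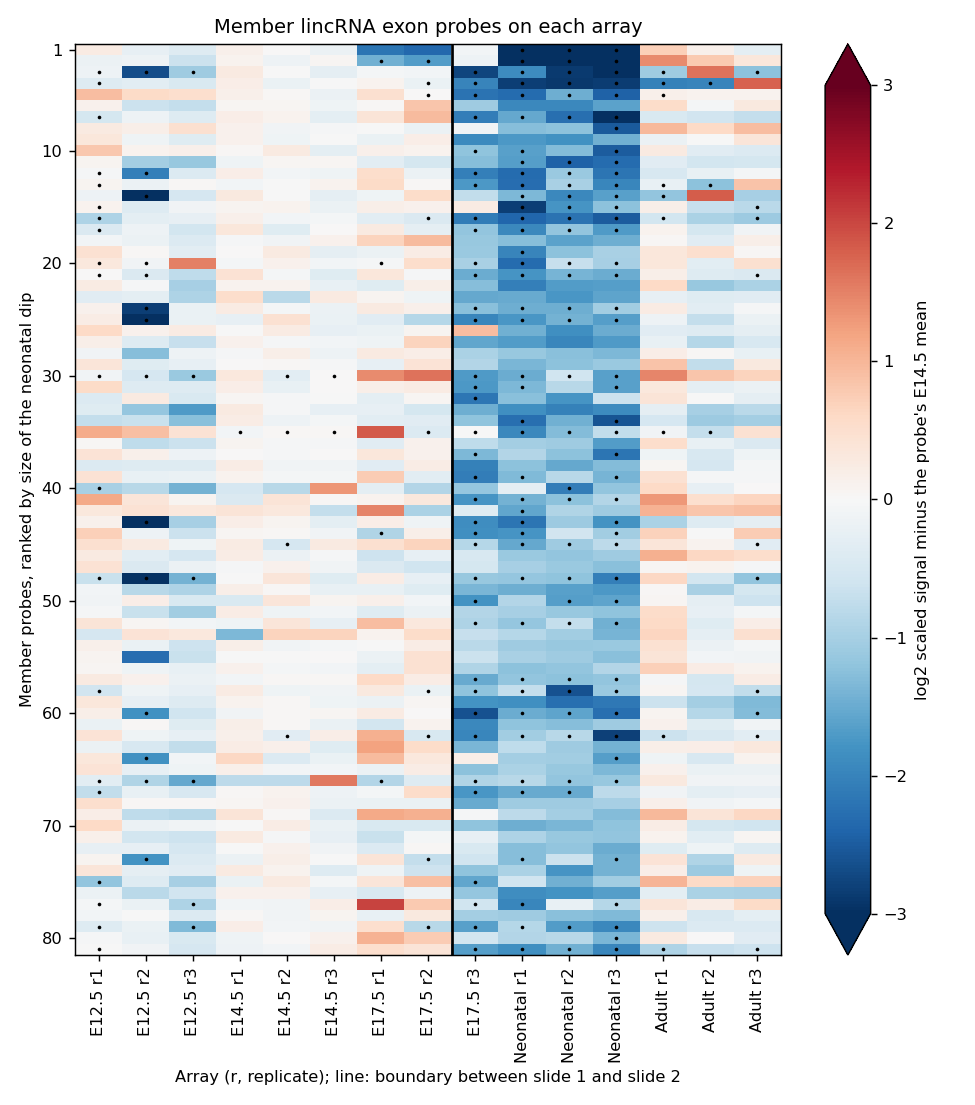
Scaled signal of each of the 81 members (rows, ranked by the neonatal dip) on each of the 15 arrays (columns), as the log2 difference from the probe's own E14.5 mean. Black dots mark spots not well above background, the vertical line separates the 2 slides, colours are cut at 3 log2 units in either direction, and the low values (blue) fill the 3 neonatal columns and most of the E17.5 replicate 3 column.

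The neonatal arrays lay together below the stages that chose the members. All 3 neonatal arrays were below all 3 E14.5 arrays in 79 of the 81 members (97.5%), where 42.5% of the lincRNA exon probes tested and 36.2% of all features tested had the same order. All 3 neonatal arrays were below all 3 adult arrays in 76 members (93.8%), against 35.7% of the lincRNA exon probes and 29.5% of all features. Both counts follow from the choosing rule. The exceptions against E14.5 were 11393- and 12075-, and those against adult were 10119-, 10749+, 11699+, 12011+ and 12031+.

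The other stages did not enter the rule as levels. The median E12.5 minus E14.5 difference was -0.29 and the median E12.5 minus neonatal difference 1.17, with all 3 neonatal arrays below all 3 E12.5 arrays in 60 of 81 members (74.1%, against 35.6% of the lincRNA exon probes and 30.7% of all features tested). The median E17.5 minus neonatal difference was 1.09, and all 3 neonatal arrays were below all 3 E17.5 arrays in 37 of 81 members (45.7%, against 18.9% of the lincRNA exon probes and 16.3% of all features tested). All 3 neonatal arrays were below all 12 other arrays in 29 members, where 5.66% of the lincRNA exon probes and 4.03% of all features tested had that order. With E17.5 replicate 3 left aside, they were below the other 11 arrays in 55 members, against 12.3% of the lincRNA exon probes and 8.23% of all features. These comparisons use the same neonatal arrays that chose the members and are therefore not independent of the rule.

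The dip was read differently in members with a neonatal signal and in members without one. Of the 81 members, 32 were well above background on all 15 arrays, and their dips ranged from 1.01 to 1.82 with a median of 1.11. In these 32 the median difference from neonatal liver was 1.25 at E14.5, 1.196 in adult, 1.05 at E12.5 and 0.99 at E17.5. Another 30 were well above background on no neonatal array, so that their neonatal level is only a bound. For 28 of these 30, E14.5 liver could be said to be at least 1.15-fold to at least 9.57-fold higher than neonatal liver, with a median bound of 1.68-fold. For 26 of them the adult bound ran from at least 1.05-fold to at least 10.9-fold, with a median of 1.49-fold. The bound sets the mean of the higher group against the higher of the dimmest well-measured signal and the probe's own signal on each neonatal array. It was given where at least 1 array of the higher group was well above background, and the other arrays of that group also entered its mean. In 10095+ and 12011+, for example, only 1 adult array was well above background, and the adult bounds were 1.44-fold and 1.27-fold. Such bounds can rest on 1 array. The remaining 19 members were well above background on some neonatal arrays or missed it elsewhere. By stage, the members well above background on all 3 arrays numbered 54 at E12.5, 77 at E14.5, 43 at E17.5, 34 in neonatal and 66 in adult liver. Detection was passed through E14.5 alone by 9 members, through E12.5 alone by 3 and through adult alone by 1. In these members the 3 neonatal arrays were not all well above background. For those that passed through E14.5 or adult alone, the requirement favoured a lower neonatal signal without forcing it.

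The largest dip belonged to 10679-, at 5.11. At E12.5 its scaled signal was 0.07, -0.43 and -0.56, and E14.5 values were -0.03, -0.17 and -0.35. E17.5 values were -2.37, -2.55 and -0.27, and neonatal values -4.87, -5.37 and -5.63, with no neonatal array well above background. Adult values were 0.54, -0.03 and -0.47. The E12.5, E14.5 and adult arrays overlapped one another, the neonatal arrays lay apart from all others, and at E17.5 replicates 1 and 2 lay between while replicate 3 lay with E14.5. The signal was at least 9.57-fold higher at E14.5 and at least 10.9-fold higher in adult than in neonatal liver.

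The next exon number with the same sign, 10680-, had the second largest dip, at 3.31. At E12.5 its scaled signal was -2.35, -2.33 and -2.81. E14.5 values were -2.07, -2.33 and -2.11, and those of E17.5 were -3.62, -3.85 and -2.33. Neonatal values were -5.40, -5.45 and -5.60, none well above background, and adult values were -0.75, -1.39 and -1.84. The order of the arrays was that of 10679-, with E17.5 replicates 1 and 2 between the neonatal arrays and the rest, except that all adult arrays were above all E14.5 arrays. Those 2 E17.5 arrays were not well above background. The bounds were at least 2.42-fold at E14.5 and at least 4.34-fold in adult liver. The probe numbered 10681- was also low in neonatal liver, at -5.62 ± 0.08 (SD, n = 3, none well above background). Its dip was 1.85, but no E14.5 array was well above background either, so this dip ranks signals and measures neither level. Its adult mean was 1.54 above its E14.5 mean, and it was not a member. The opposite-sign probes 10679+ and 10680+ were well above background on 1 array each.

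Membership of 10095+ and 11562- rested on single adult arrays. For 10095+ (dip 2.39) the E14.5 values were -2.42, -2.70 and -2.95 and the neonatal values -4.59, -5.56 and -5.77, while the adult values were -3.76, -1.06 and -3.92 with replicate 2 alone well above background. For 11562- (dip 2.10) the E14.5 values were -2.62, -3.03 and -2.83, the neonatal values -5.64, -5.72 and -5.67, and the adult values -4.85, -4.81 and -1.07 with replicate 3 alone well above background. In both members the other 2 adult arrays lay below all E14.5 arrays. Without adult replicate 2 the dip of 10095+ was 1.47, but its adult mean was then 1.15 below its E14.5 mean. Without adult replicate 3 the dip of 11562- was 0.85. No neonatal array was well above background in either, and the bounds against neonatal liver were at least 1.68-fold at E14.5 and 1.44-fold in adult for 10095+, and at least 1.53-fold at E14.5 for 11562-, which had no adult bound. Adult arrays spanned more than 2 log2 units in 4 members, these 2 with 11227- and 12011+, and E14.5 arrays did so in 3 members, 11393-, 11408+ and 12075-.

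The remaining members among the 10 largest dips had adult replicates close together. In 11748+ (dip 2.07) the E14.5 values were -3.07, -3.18 and -3.38, the neonatal values -5.52, -4.68 and -5.62, none well above background, and the adult values -3.05, -3.11 and -3.10. The bounds for 11748+ were at least 1.18-fold at E14.5 and at least 1.28-fold in adult liver. In 10293+, which was well above background on all 15 arrays, the dip was 1.82. E12.5 values were -0.62, -1.38 and -1.47, E14.5 values -0.68, -0.68 and -0.89, and E17.5 values -0.72, 0.09 and -1.83. Neonatal values were -2.68, -2.67 and -2.36, and adult values -0.21, -0.81 and -0.45. The neonatal arrays of 10293+ were below all others, and E17.5 replicate 3 was the lowest of the rest.

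In 11067- (dip 1.66), also well above background on all arrays, E14.5 values were -0.97, -1.23 and -1.11, E17.5 values -1.31, -0.91 and -3.01, neonatal values -2.82, -2.93 and -2.54, and adult values -1.28, -1.11 and -0.75. E17.5 replicate 3 was here below every neonatal array. In 10442- (dip 1.79) E14.5 values were -2.09, -2.20 and -2.59, E17.5 values -1.91, -1.36 and -4.36, neonatal values -3.82, -4.55 and -5.62, and adult values -2.74, -2.88 and -2.999. Here E17.5 replicate 3 fell within the neonatal range, and none of these 4 arrays was well above background. The bounds for 10442- were at least 2.21-fold at E14.5 and at least 1.48-fold in adult liver. In 10979- (dip 1.67) the E17.5 values of -1.41, -1.57 and -1.51 were close together and close to the E14.5 values of -1.28, -1.52 and -1.43. Its neonatal values were -2.69, -2.64 and -3.92, the last not well above background, and its adult values -0.44, -0.82 and -0.49. In 10589- (dip 1.65) the neonatal values were -3.66, -3.33 and -4.53, of which only -3.33 was well above background. Its adult values were -1.75, -2.36 and -2.44. E17.5 replicate 3 of 10589-, at -3.23 and not well above background, was again nearest the neonatal arrays.

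**Figure D2:**
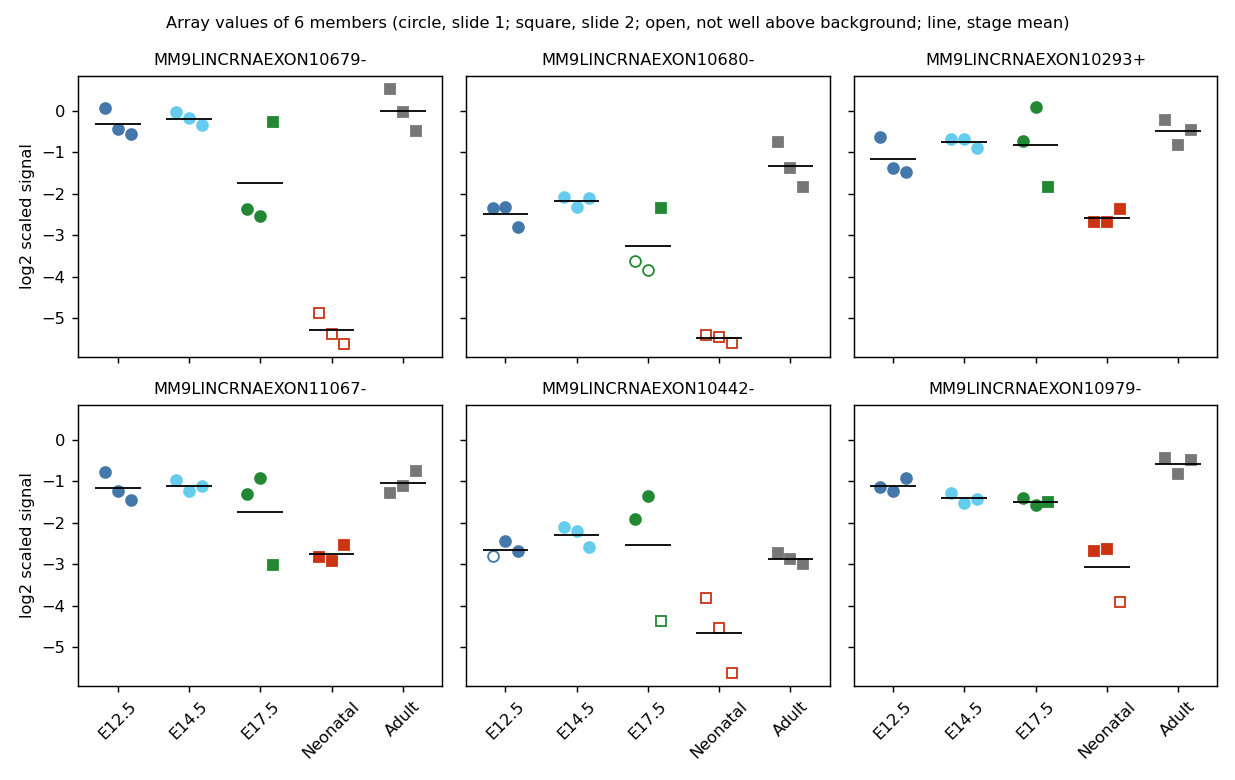
Scaled signal (log2, y axis) of 6 members at each stage (x axis), the 2 largest dips, the 2 largest dips among probes well above background on all 15 arrays, and the members ranked 7 and 8. Each point is 1 array and lines are stage means; open points were not well above background, circles lie on slide 1 and squares on slide 2, and the single E17.5 square is high in 10679- and 10680-, level with the circles in 10979- and low in the other 3.

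In most members 1 of the 3 E17.5 arrays stood apart, replicate 3, which was also the only E17.5 array on the second slide. Sample and slide cannot be told apart for it. The median over the members of the difference from the E14.5 mean was 0.07 on E17.5 replicate 2 and below 0.01 in size on replicate 1, both on the first slide, and -1.21 on replicate 3 on the second slide. The same median was -1.41, -1.25 and -1.44 on the neonatal arrays and 0.16, -0.32 and -0.11 on the adult arrays. E17.5 replicate 3 was nearer the neonatal than the E14.5 mean in 67 of 81 members, replicate 1 in 4 and replicate 2 in 7. In the 32 members well above background on all 15 arrays these counts were 26, 2 and 1. The medians in these 32 were -0.22 on replicate 1, 0.15 on replicate 2 and -1.11 on replicate 3. Replicate 1 is the array where 55.8% of the negative-control spots were marked well above background. It was at or above the E14.5 mean in 7 of these 32 members and in 21 of the 30 without a neonatal signal. Replicate 3 was below both other E17.5 arrays in 86.4% of the members, 52.3% of the lincRNA exon probes tested and 38.8% of all features tested.

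Another 395 lincRNA exon probes were at least 1 lower in neonatal than in E14.5 liver without being members. In these 395 probes replicate 3 was nearer the neonatal mean in 306, replicate 1 in 48 and replicate 2 in 29, and replicate 3 was below both other E17.5 arrays in 86.8%. In 255 of them the adult mean was more than 1 below the E14.5 mean, and in these the counts were 182, 21 and 13 and the share 84.7%. The median of replicate 3 minus the mean of the other E17.5 arrays was -1.03 in the 395 probes, -0.96 in the 255, -1.32 in the members and -0.36 over the lincRNA exon probes tested.

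Replicate 3 was above both other E17.5 arrays in 4 members, 10679-, 10680-, 10872- and 11825+. In 10872- the E17.5 values were -0.86, -0.57 and 0.27 and the neonatal values -2.10, -2.48 and -2.14, so that replicate 3 was 0.99 above the mean of the others. The difference was 2.19 in 10679- and 1.40 in 10680-. In 11825+, with E17.5 values of -2.64, -2.68 and -2.57 and neonatal values of -5.65, -4.60 and -4.05, it was 0.09. Of the 6 listed marker genes that the files name, Hmgcs1, an enzyme of cholesterol synthesis counted as a hepatocyte marker, had 7.27, 7.32 and 7.30 as E14.5 values and 7.51, 7.75 and 8.25 as E17.5 values, with 6.05, 5.38 and 5.71 in neonatal and 9.18, 8.47 and 8.81 in adult liver. Tfrc, the transferrin receptor, which is abundant on red cell precursors, had E14.5 values of 8.99, 8.75 and 8.72 and E17.5 values of 8.07, 8.33 and 9.23, with 8.19, 8.22 and 7.93 in neonatal and 5.77, 5.58 and 5.01 in adult liver. Ccl21b, a lymphoid chemokine, had E14.5 values of 1.73, 1.66 and 1.64 and E17.5 values of 0.84, 1.22 and 0.94, with -0.44, 0.05 and 0.42 in neonatal and 1.37, 2.71 and 3.14 in adult liver. Replicate 3 was the highest E17.5 array for Hmgcs1, Tfrc and the 3 histone genes H2ac18, H2ac19 and H2ac23, and not for Ccl21b. The histone genes, listed for proliferation, did not move alike. H2ac18 rose from a mean of 3.31 at E14.5 to 6.44 in neonatal and 7.60 in adult liver. H2ac19 had means of 8.27, 7.82 and 6.38 at these stages, and H2ac23 had 1.07, -1.06 and -3.87. The part of these 6 genes in the members' values was not tested.

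**Figure D3:**
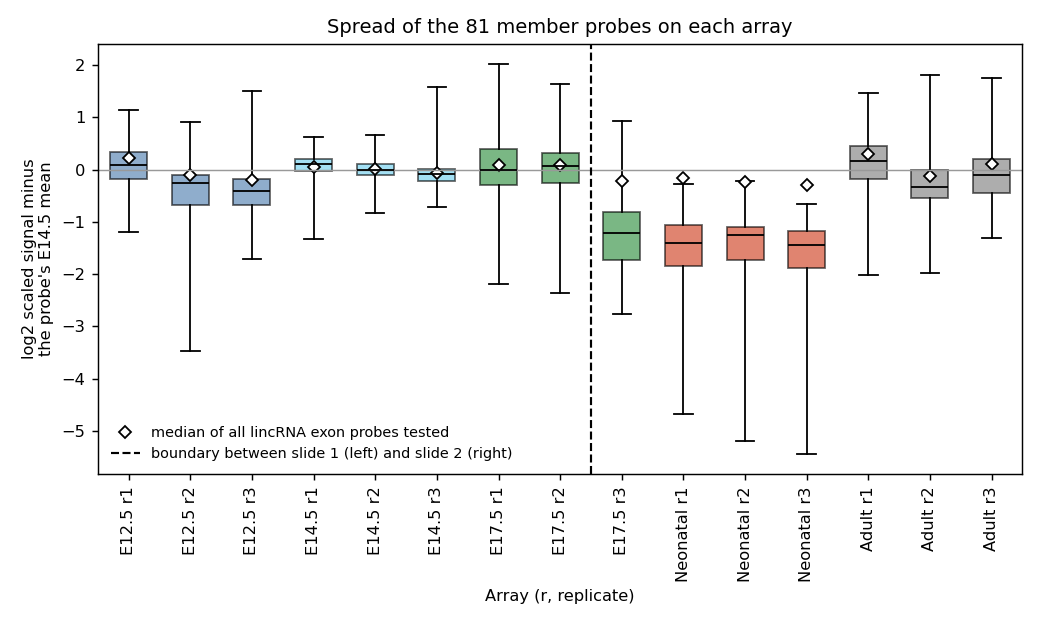
Log2 difference of the 81 members from their E14.5 means (y axis) on each array (x axis). Boxes run from the lower to the upper quartile with the median as a line, whiskers reach the lowest and highest member, diamonds are the medians of all 1874 lincRNA exon probes tested, and the median on E17.5 replicate 3 (-1.21) lies near the neonatal medians (-1.25 to -1.44), whereas E17.5 replicates 1 and 2 and the adult arrays lie near 0.

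The contrast of E17.5 against E12.5, whose levels the rule did not use, asks whether these exon probes changed within fetal life. The detection marks of both stages did enter the rule. Since 3 members passed detection through E12.5 alone and 0 through E17.5 alone, the contrast is not wholly free of the choosing. Of the 81 members, 1 rose and none fell between E12.5 and E17.5 (limma, Benjamini-Hochberg adjusted p below 0.05 over 37363 features). That is 1.23% of the members, where 13.9% of the lincRNA exon probes tested and 16.9% of all features tested were called in either direction. Upward calls made up 9.12% of the lincRNA exon probes and 10.2% of all features, and downward calls 4.8% and 6.72%. The member that rose was 10446+, by 1.19 ± 0.37 (SE, 95% interval 0.40 to 1.98, limma adjusted p = 0.0407). Its values were -0.89, -1.85 and -1.92 at E12.5 and 0.05, -0.02 and -1.12 at E17.5, and the stages overlapped because E17.5 replicate 3 was below E12.5 replicate 1. Its adjusted p ranged from 0.00674 to 0.231 over 17 other settings and it was called in 10 of them. At an unadjusted p below 0.05, 2 members were higher and 4 lower at E17.5, where 16.0% and 10.3% of the lincRNA exon probes and 16.2% and 14.2% of all features tested were.

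The E17.5 minus E12.5 difference ranged from -1.42 to 1.30 over the members, was positive in 32 and negative in 49, and had a median of -0.05, against 0.03 over the lincRNA exon probes tested and -0.05 over all features. The upper end, in 10119-, is uncertain, since none of its E12.5 arrays was well above background. Its E12.5 replicate 2 value, -5.54, was the lowest on that array. There 5 members stood at the lowest value, as did 126 of the 1874 lincRNA exon probes tested. The median half-width of the 95% interval was 0.90 in the members and 0.80 over the lincRNA exon probes, and the median SD of the 3 E17.5 arrays was 0.83 in the members and 0.61 over the lincRNA exon probes. The interval lay wholly between -1 and 1 in 22 members, so for the others a 2-fold change was within the error. The largest difference, in 10679-, was -1.42 ± 0.49 (SE, limma adjusted p = 0.0624), and in 10680- it was -0.77 ± 0.37 (SE, limma adjusted p = 0.174).

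**Figure D4:**
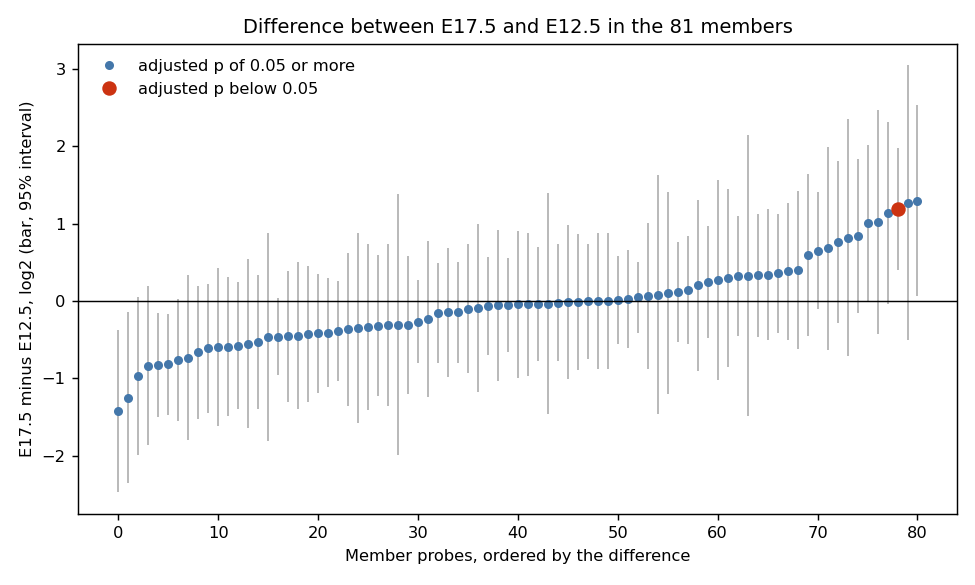
E17.5 minus E12.5 difference (log2, y axis) of each of the 81 members in order of size (x axis), with its 95% interval from limma over all 15 arrays. The single red point is 10446+ at 1.19, the only member with an adjusted p below 0.05, and the lowest point is 10679- at -1.42.

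These calls turned on single arrays. Without E17.5 replicate 3, which is also what a block for slide amounts to because no other array links E12.5 and E17.5 across slides, 7 members rose (10446+, 10579+, 11080-, 11097+, 11504-, 11833+ and 11874-) and 2 fell, 10679- by 2.15 (limma adjusted p = 0.000645) and 10680- by 1.23 (limma adjusted p = 0.0101). In that fit 9.77% of the lincRNA exon probes and 10.4% of all features rose, and 5.87% and 10.3% fell. For 10680-, E17.5 replicates 1 and 2 were not well above background, so its fall there rests on no measured E17.5 level. Using the 5 first-slide arrays of the 2 stages alone, 11080- rose and 10679- fell, the latter with a limma adjusted p of 0.0239. No E12.5 array of 11080- was well above background, so the size of its rise is uncertain in either fit. The median difference of the members was 0.32 in both of these fits, -0.28 without E17.5 replicate 1 or replicate 2, and -0.35 with quantile normalization. Without E12.5 replicate 1 there were 3 members that rose, and without any 1 of E12.5 replicates 2 and 3 and E17.5 replicates 1 and 2 there was none. Without E17.5 replicate 1, 11748+ fell by 1.77 (limma adjusted p = 0.0312), but neither remaining E17.5 array was well above background for it.

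Exon number and sign were not part of the rule. The opposite-sign probe of the same number was on the array for all 81 members, and 40 of these were tested. There were 2 members among the 40, 11227+ and 11227-, which are each other's partners. Of all lincRNA exon probes tested, 4.32% were members. Of the 40, 40% had a dip above 0, as did 43.1% of the lincRNA exon probes tested. The plus-sign probe 11227+ was well above background on all 15 arrays, at -0.53, -0.31 and -0.64 at E14.5, -1.63, -1.75 and -1.84 in neonatal and -0.29, -0.46 and -0.72 in adult liver. Its partner 11227- was at -1.78, -2.08 and -2.33, at -3.41, -3.99 and -3.68, and at -3.24, -0.25 and -3.06, with the stages in the order just given, and its adult mean was carried by replicate 2.

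Consecutive numbers were found in 3 pairs of members, 10431+ with 10432-, 10679- with 10680-, and 10872- with 10873-. Over the members, 71 probes of the next higher or lower number with the same sign were tested, 4 of which were members, and their median dip was -0.09. Among all lincRNA exon probes tested, 4.32% were members and the median dip was -0.19. In 10873- the E14.5 values were -0.74, -0.60 and -0.82, the E17.5 values -1.13, -0.68 and -1.19, the neonatal values -2.003, -1.92 and -2.21 and the adult values -1.08, -0.86 and -1.10, so that its E17.5 arrays lay together, unlike those of 10872-. In 10431+ the E14.5 values were -0.51, -0.85 and -0.81, the neonatal values -1.72, -1.85 and -1.92 and the adult values -0.17, -0.98 and -0.77. In 10432- they were 0.07, -0.07 and -0.31, then -1.30, -1.39 and -1.18, then 0.04, -0.45 and -0.21, with E17.5 replicate 3 below every neonatal array at -2.04. The 4 probes of the first and last of these pairs were well above background on all 15 arrays.

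The same rule applied to the other probe families of the array kept 27 of 248 probes named for mouse lincRNAs (10.9%), 29 of 408 named for human lincRNAs (7.11%), 16 of 329 for ultraconserved elements (4.86%) and 834 of 33708 that carry the maker's ID alone (2.47%). It kept 3.11% of probes with other accessions and 2.3% of the other custom probes. Over all 37363 features it kept 2.7%. These shares are a description, since probes of a family can share transcripts.

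At the limits of the rule, the members with the smallest dips were 11183- at 1.005, 11504- at 1.006 and 11083- at 1.008. Just outside lay 10888+ at 0.998, 11735- at 0.995 and 10321+ at 0.987. For the adult minus E14.5 difference the members nearest the limit were 11125- at -0.995, 11080- at 0.985 and 10263- at 0.927, and just outside lay 11774- at 1.03, 11163- at -1.12 and 10848- at -1.14. With normexp, which here started from the median signal in place of the processed signal and added an offset of 50, 2 of the 81 met the rule, 10679- and 11393-. Which of these changes moved the count was not tested. The authors' own log2 table held 48 of the members, of which 42 met the rule there. When each E14.5, neonatal or adult array was left out in turn, 30 members met the rule every time. They included 14 probes that were also well above background on all 15 arrays, with dips from 1.09 to 1.82, and 7 of the 10 largest dips, without 10680-, 10095+ and 11562-. None of the 81 members met the rule under every setting run.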

How the data were processed

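The 15 arrays are Agilent 1-colour arrays on a grid built on mm9. Per the file headers they were read with Feature Extraction 11.0.1.1, whereas the submitters' processing notes name Agilent Feature Extraction 10.7.3.1. The deposited spot intensity (processed signal) is linear and, per the file headers, had its background subtracted and its spatial trend removed, without scaling between arrays. The recorded average of the multiplicative trend surface was not alike on all arrays. It was 0 on all first-slide arrays and adult replicate 2. On E17.5 replicate 3, the neonatal arrays and adult replicates 1 and 3 it lay between 0.993 and 1.005. The part of this difference in the members' values was not tested. The authors' deposited value table holds log2 values, whose normalization is not given in the sources used here.

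Control and outlier spots were left out, and the log2 values of a probe's spots averaged, which gave 59709 noncontrol probes. Values were then taken relative to each array's 75th percentile. That percentile was computed over the 59994 noncontrol spots of the array, before averaging and with outlier spots kept. The 37363 features that all 3 arrays of some stage marked as well above background were fitted with limma 3.58.1 (R 4.3.3), with a mean per stage over all 15 arrays, and tested on simulated data with known changes. Normexp used the median signal, because the files hold no mean signal column. Members, lists and tests were chosen with earlier results of these data known. Named are the 10 largest dips, called members, probes at each limit, and pairs of consecutive numbers. That last set replaced members of a shared locus, since no coordinates were used, and it was chosen after the values were seen, as were the members named as exceptions. Replicate numbers were not treated as pairs: deviations of same-numbered arrays correlated between -0.24 and 0.48 over 30 pairs (median 0.01). Precision is limited by 3 arrays a stage. Alternatives are given in the closing section.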

Additional observations from a re-analysis of the deposited data

How the results depend on the processing

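The count of 81 probes meeting the rule became 2 with normexp, 43 in the authors' table, which holds 48 of the members, and 32 when all 15 arrays had to be well above background; leaving out 1 array gave 62 to 99. The other 4 settings gave 66 to 96. The count of members that rose from E12.5 to E17.5 (1) became 0 with no filter on dim probes, 0 with the 6 arrays of these stages alone and 7 with slide as a block, and was 0 to 7 with an array left out. The count that fell (0) became 3 with quantile normalization, 1 with normexp, 1 in the authors' table, 2 with slide as a block and 1 within the first slide, and was 0 to 2 with an array left out. With replicate number as a block, 1 rose and 0 fell, so the block changed no call. With normexp the median E14.5, adult and E17.5 minus neonatal differences were 0.48, 0.65 and 0.42. The E17.5 minus neonatal median was 0.87 without E17.5 replicate 1 and 1.58 without replicate 3. The cause of these changes was not tested. The 75th percentile over detected probes and the kept outlier spots were added for these medians after seeing the data and moved none beyond the spread. Signal over background limits the 30 members with no measured neonatal level.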

Other observations

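Over all features tested, the probes whose scaled signal followed that of 10679- most closely across the 15 arrays, chosen after the values were seen and given as a description, were ASMM9PARTA033013 (r = 0.977), ASMM9PARTA022985 (r = 0.972), the member 10680- (r = 0.970) and ASMM9PARTA033708 (r = 0.951), with 15 arrays behind each r. ASMM9PARTA033013 was well above background on all arrays, at 3.46, 3.80 and 4.39 at E17.5, 2.98, 2.95 and 2.79 in neonatal and 4.71, 4.42 and 4.38 in adult liver, so that E17.5 replicate 3 was again the highest of its stage. The files give these maker's IDs no gene. The probe AI390938 ran the opposite way (r = -0.981 over 15 arrays). It was at 1.12, 2.26 and 2.22 in neonatal liver and at -2.51, -3.44 and -5.55 at E17.5, and was well above background on no E12.5, E14.5 or adult array.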
